A study of Mus musculus with 36 samples.

Results

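The comparison of HFD-25% with HFD-U set the shortest running distance against unrestricted running. HFD-25% mice averaged 2.1 km/day and HFD-U mice 8.3 km/day. Its 12 libraries, 6 from each group, were chosen by the running treatment in the sample labels, out of 36 libraries in the whole series. Both groups were wild-type male C57BL/6 mice, 3 to 4 weeks old on arrival, that ate a high-fat diet and had a running wheel in the cage for 12 weeks. HFD-25% mice could run from lights-off until a programmed brake stopped the wheel at their daily quota, whereas HFD-U mice ran without a brake. Distance and the part of the night left for running therefore cannot be told apart, and the hour of tissue collection is not given in the sources used here. One gastrocnemius, the large calf muscle, was taken whole from each mouse and gave 1 library, so p-values measure the spread between individual mice. In such bulk tissue, fewer cells of a type and less RNA per cell cannot be told apart.

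Skeletal muscle adapts to repeated running through fuel use, capillary supply, fibre type and the daily timing of transcription. The muscle clock is a loop in which Clock and Bmal1 activate their own repressors through the E-box sequence, and the repressors Nr1d1, Per, Cry, Bhlhe40 and Bhlhe41 peak at other hours than Bmal1. Capillary endothelial cells line the vessels between fibres, and interferon-stimulated genes include the antiviral effectors and the MHC class I molecules that present peptides at the cell surface.

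The 12 libraries held 14611063 to 21240392 counted reads, with a median of 17449615 in HFD-25% and 15422362 in HFD-U. Mitochondrial transcripts took 11.9 to 23.3% of the counts. Features linked to ribosomal RNA took 0.470 to 0.700%, within the lower part of the range of 0.404 to 3.81% over the 36 libraries. Of 12 skeletal muscle markers, 11 were tested and 0 were called, with Ckm, muscle creatine kinase, at a median of 11832 CPM (counts scaled to the size of the library) in HFD-25% and 12872 in HFD-U. The 12th, Mylpf, had too few reads to be tested. Of 12 fat cell markers, 7 were tested, and Adipoq, Lep, Retn, Plin1 and Pck1 were below the minimum count. The list summed to 1350 to 3256 CPM per mouse, most of it Car3, which averaged 1607 CPM in HFD-25% and 1807 CPM in HFD-U.

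No gene passed the adjusted threshold when the 2 groups were compared with edgeR's quasi-likelihood test, and most differences were small. Genes averaging 25 reads or more were tested, and a gene is referred to as called when its unadjusted p did not exceed 0.05. Of 11949 genes tested, 609 were called. They made up 5.1% of the genes tested, against 597 genes at 5%. Of the called genes, 393 were higher in HFD-25% (3.29% of all genes tested) and 216 were lower (1.81%). The smallest unadjusted p was 0.000279 and the smallest Benjamini-Hochberg adjusted p was 0.914, so no gene named below had an adjusted p under 0.914. With DESeq2 698 genes were called, 0 passed the adjusted threshold and the smallest adjusted p was 0.0594.

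Differences of 2-fold or more were rare. The middle 90% of log2 fold changes (HFD-25% over HFD-U) ran from -0.28 to 0.45, and the median standard error was 0.157. Over all genes tested, 49.5% of log2 fold changes were above 0. Called genes with a difference of at least 2-fold numbered 31 (0.259%), of which 26 were higher (0.218%) and 5 were lower (0.0418%) in HFD-25%. In 24 genes (0.201%) the 6 values of one group did not overlap those of the other, with 18 higher (0.151%) and 6 lower (0.0502%) in HFD-25%. The count of called genes depended on single mice, reaching 1219 without HFD-25% mouse 1 and 1027 without HFD-U mouse 4, and falling to 405 without HFD-25% mouse 6. Of the 63 called genes named below, 40 stayed called whichever of the 12 mice was left out, and the other 23 are pointed out where they occur.

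**Figure D1:**
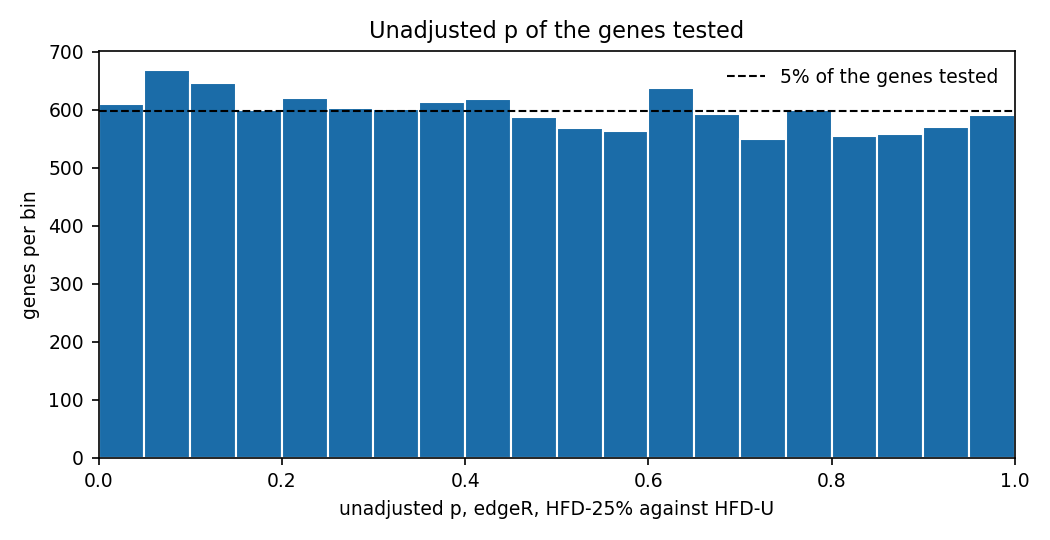
Histogram of the unadjusted edgeR p of the 11949 genes tested, in bins of 0.05 on the horizontal axis, with the number of genes per bin on the vertical axis. The first bin, with 609 genes, stands near the dashed line at 5% of the genes.

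The 24 genes without overlap (0.201% of all genes tested) belonged to no single list. Among 11949 genes some would separate 6 from 6 values by chance, and whether 24 exceeds that was not tested. Sox13, a SoxD transcription factor (chr1:133310038-133352198, GRCm39), ran from 16.9 to 21.0 CPM in HFD-25%, with a median of 18.5, and from 11.9 to 16.8 CPM in HFD-U, with a median of 12.9. All 6 HFD-25% mice lay above all 6 HFD-U mice, and HFD-U mouse 1, at 16.8 CPM, came nearest. Its log2 fold change was 0.49 ± 0.10 (SE), with an unadjusted p of 0.000279 in edgeR. Tnks1bp1, which encodes a tankyrase-binding protein (chr2:84878356-84903392), ran from 22.8 to 27.0 CPM in HFD-25%, with a median of 24, and from 16.0 to 21.3 CPM in HFD-U, with a median of 18.2. These ranges did not meet either, and the log2 fold change was 0.43 ± 0.09 (SE, unadjusted p = 0.000336 in edgeR). Snrpg, the core spliceosomal protein SmG, was at 9.80 to 13.3 CPM (median 10.3) against 5.17 to 9.07 CPM (median 6.96), again without overlap. The log2 fold change of Snrpg was 0.63 ± 0.15 (SE).

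Map3k15, a kinase of the ASK family that activates stress MAP kinase cascades, was also higher in every HFD-25% mouse than in any HFD-U mouse. Its values were 4.37 to 5.96 CPM with a median of 4.78 in HFD-25%, and 1.57 to 3.85 CPM with a median of 3.21 in HFD-U. The log2 fold change of Map3k15 was 0.78 ± 0.22 (SE, unadjusted p = 0.00257 in edgeR). Id2, an inhibitor of helix-loop-helix transcription factors that was picked out after its values were seen, held 1.81 to 3.63 CPM against 0.568 to 1.79 CPM without overlap.

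Lower in every HFD-25% mouse was Pik3cd, the p110-delta catalytic subunit of PI3 kinase found mostly in leukocytes. It held 11.8 to 14.5 CPM with a median of 13.6 in HFD-25%, and 16.1 to 29.8 CPM with a median of 18.9 in HFD-U, where mouse 6 stood far above the rest. The log2 fold change of Pik3cd was -0.58 ± 0.14 (SE, unadjusted p = 0.000724 in edgeR). Rai2 (8.79 to 11.3 against 12.2 to 15.8 CPM), Etfbkmt, the methyltransferase of the electron transfer flavoprotein (9.20 to 11.9 against 12.2 to 16.8 CPM), and Fam20c, the kinase of secreted proteins (7.45 to 11.8 against 12.5 to 18.6 CPM), were lower without overlap too. Their log2 fold changes were -0.42 for Rai2, -0.42 for Etfbkmt and -0.50 for Fam20c.

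**Figure D2:**
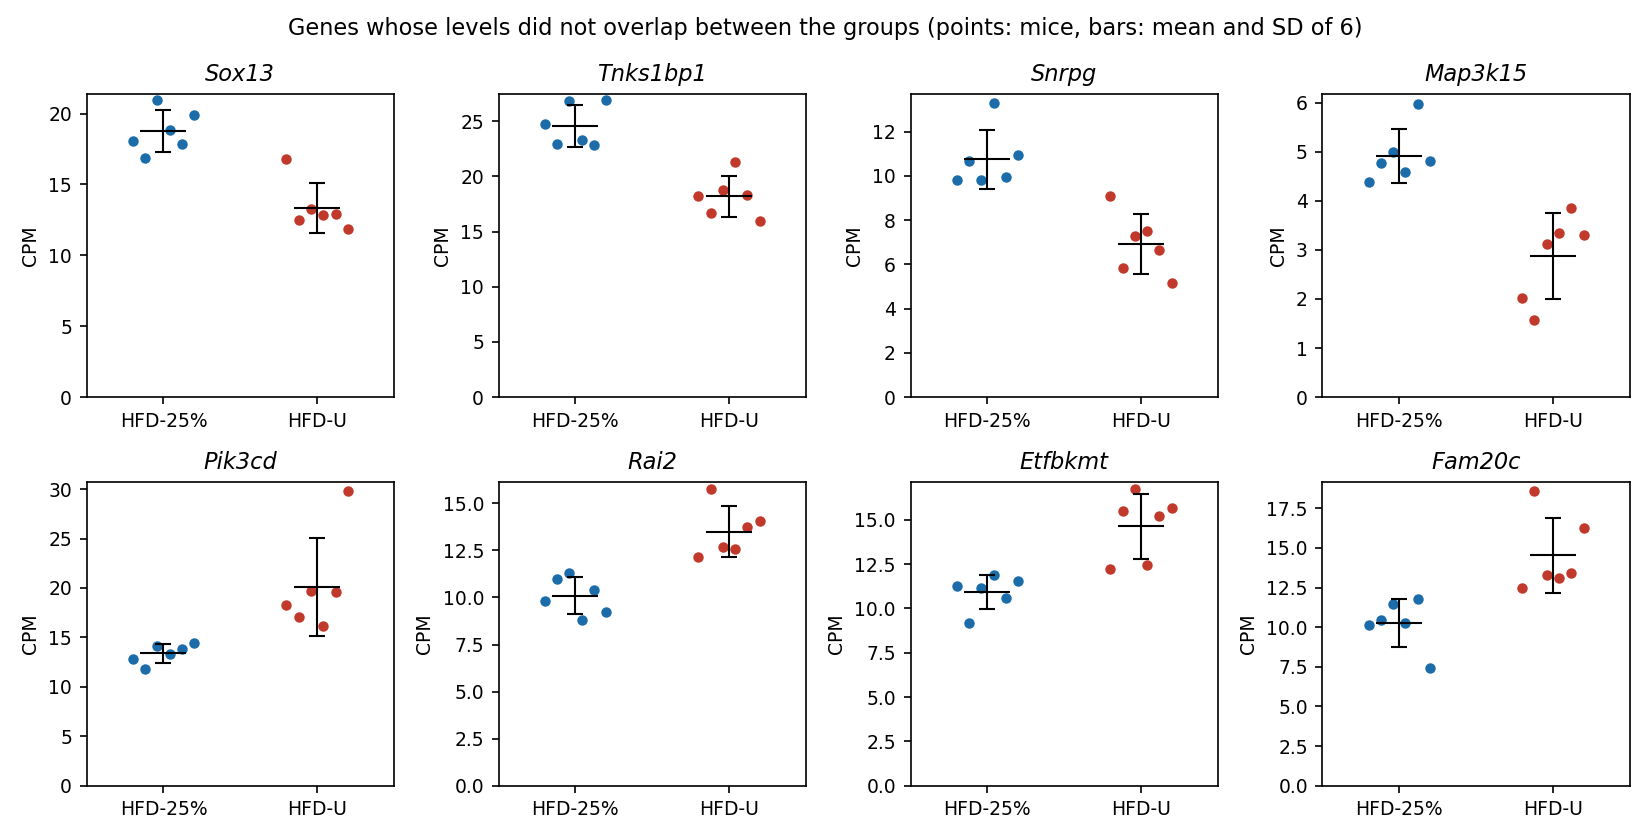
CPM by mouse (points) with the mean and SD of 6 mice (black bars) for 8 genes whose HFD-25% and HFD-U values did not overlap. Sox13, Tnks1bp1, Snrpg and Map3k15 were higher in HFD-25%, and Pik3cd, Rai2, Etfbkmt and Fam20c were lower.

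Further genes with the smallest p overlapped in 1 or a few mice. Among those higher in HFD-25%, Zfp36l1, which binds AU-rich elements and speeds messenger RNA decay, had a log2 fold change of 0.64 ± 0.15 (SE), Nynrin 1.09 ± 0.27, and Rhof, a small GTPase of filopodia, 0.39 ± 0.10. In these, 4, 5 and 5 HFD-25% mice lay above every HFD-U mouse. Among those lower, Nhs, the gene of Nance-Horan syndrome, had a log2 fold change of -1.32 ± 0.31 (SE), Sh3bp5 -0.48 ± 0.12, Peli3, a Pellino ubiquitin ligase, -1.0 ± 0.27, and Relch -0.49 ± 0.13.

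Clock genes were the list with the largest share of called members. In the list of 13 genes that cycle in or near the phase of Dbp, 5 were lower in HFD-25% (38.5% of the list, against 5.1% of all genes called in either direction) and 0 were higher. The list's median log2 fold change was -0.16, against -0.00 over all genes. The lower members were Nr1d1, Bhlhe40, Bhlhe41, Dbp and Ciart.

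Nr1d1, which encodes REV-ERB alpha, a repressor of Bmal1 transcription (chr11:98658758-98666233), ran from 17.8 to 47.8 CPM in HFD-25% with a median of 30.9. In HFD-U it ran from 34.9 to 120 CPM with a median of 71.9. The groups overlapped only through the lowest HFD-U mouse, number 5, and 4 HFD-25% mice lay below every HFD-U mouse. The log2 fold change of Nr1d1 was -1.14 ± 0.28 (SE, unadjusted p = 0.000995 in edgeR).

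Bhlhe40, the helix-loop-helix repressor DEC1 that competes with Clock and Bmal1 for E-boxes (chr6:108637590-108643886), held 35.5 to 70.5 CPM with a median of 60.0 in HFD-25%. In HFD-U it held 69.7 to 170 CPM with a median of 108. The groups met only where HFD-25% mouse 3, at 70.5 CPM, passed HFD-U mouse 4, at 69.7 CPM. Its log2 fold change was -0.93 ± 0.21 (SE, unadjusted p = 0.000377 in edgeR), the smallest p of any lower gene.

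Bhlhe41, the related repressor DEC2, was at 35.4 to 73.8 CPM (median 59.7) in HFD-25% and 57.3 to 119 CPM (median 80.8) in HFD-U, with a log2 fold change of -0.50 ± 0.19 (SE). Dbp, a PAR bZIP activator and direct output of the clock, was at 41.3 to 111 CPM (median 84.5) against 94.5 to 130 CPM (median 121), with a log2 fold change of -0.51 ± 0.20. Ciart, the Clock and Bmal1 repressor also named CHRONO, was at 3.38 to 16.7 CPM (median 10.2) against 12.7 to 27.3 CPM (median 14.9), with a log2 fold change of -0.74 ± 0.31. In these 3 genes 3, 4 and 4 HFD-25% mice lay below every HFD-U mouse. HFD-25% mouse 2 had the lowest level of Nr1d1, Bhlhe40, Dbp and Ciart. When 1 mouse was left out in turn, Nr1d1 and Bhlhe40 stayed called. Bhlhe41 was not called without HFD-U mouse 2 (log2 fold change -0.35), nor Dbp without HFD-25% mouse 4 (-0.43), nor Ciart in 4 of the 12 fits, such as that without HFD-U mouse 3 (-0.57).

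The rest of the loop did not follow as a whole. The other repressors and outputs tested gave log2 fold changes of -0.13 ± 0.15 (SE) for Per1, 0.22 ± 0.17 for Per2, -0.08 ± 0.28 for Per3, -0.09 ± 0.10 for Nr1d2 and -0.10 ± 0.11 for Tef, the most abundant member by CPM. They were named after their values were seen, other than Tef. In the list of 6 genes in the phase of Bmal1, 0 were called. Arntl, which encodes Bmal1 itself and was likewise picked out afterwards, ran from 5.29 to 23.7 CPM in HFD-25% and from 5.17 to 9.92 CPM in HFD-U, with a log2 fold change of 0.60 ± 0.33 (SE, unadjusted p = 0.0883 in edgeR). Between 3 and 6 of the 13 genes in the phase of Dbp were lower, and 0 higher, in the 24 alternative fits, with 3 without HFD-25% mouse 4.

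**Figure D3:**
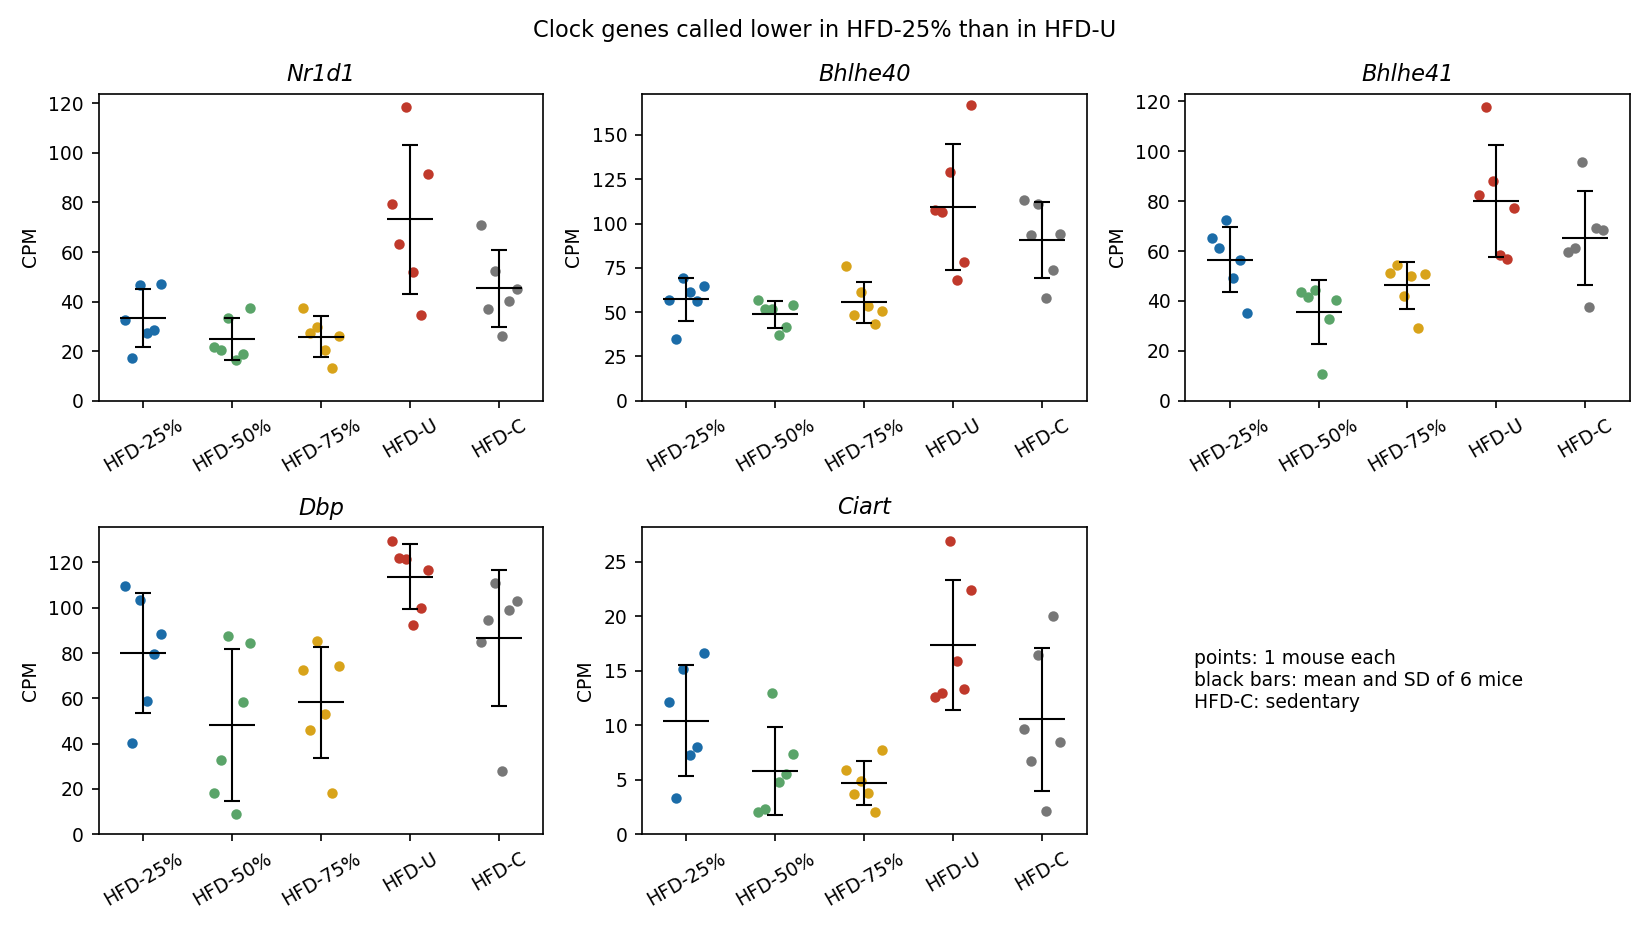
CPM by mouse (points) with the mean and SD of 6 mice (black bars) for the 5 clock genes lower in HFD-25%, in the 4 running groups and in the sedentary group HFD-C. HFD-U stands highest by its mean in all 5 panels.

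Read across all high-fat diet groups, with CPM scaled over 30 mice, HFD-U had the highest means of Nr1d1 and Bhlhe40. Both were picked for a lower level in HFD-25% than in HFD-U, so the order of those 2 groups was fixed beforehand. The sedentary HFD-C libraries stood apart, with rRNA-linked features at 2.12 to 3.54% of the counts in mice 1 to 4 and 0.551 and 0.627% in mice 5 and 6, and the part of this in their levels was not tested. Nr1d1 averaged 73.2 ± 29.9 (SD) CPM in HFD-U, against 33.3 ± 11.7 in the HFD-25% mice, 24.8 ± 8.47 in the HFD-50% mice, 25.7 ± 8.26 in the HFD-75% mice and 45.3 ± 15.4 in the sedentary HFD-C mice. Bhlhe40 averaged 109 ± 35.7 CPM in HFD-U and 90.7 ± 21.5 CPM in HFD-C, against 57.2 ± 12 at 25%, 48.9 ± 7.67 at 50% and 55.5 ± 11.7 at 75% of the distance. For both genes the means of the 3 groups with a brake differed by less than the largest of their SDs, and HFD-C lay between them and HFD-U. The means of HFD-C and HFD-U differed by less than the SD of HFD-U in both genes, so a high level was not particular to unrestricted running. No level followed the running distance step by step.

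The promoters of the clock genes were searched for the sequence through which Clock and Bmal1 act. The canonical E-box CACGTG, which reads the same on both strands and contains none of the other motifs searched, was looked for in RefSeq promoters (GRCm38.p6) from 250 bases before to 50 bases after each start. A promoter was found for 9251 of the 11949 genes tested, and 12.1% of them held a CACGTG. Of the 11 genes in the phase of Dbp with a promoter, 4 did (36.4%). Of the genes called lower, 10.4% did, and of the genes called higher, 10.1%. The 250 bases before the start are printed here for Ciart (chr3:95882229-95882478, minus strand) and Bhlhe41 (chr6:145865421-145865670, minus strand). Of the lower clock genes with a promoter, these had a match in that stretch, and Bhlhe40 had no promoter to search. Capitals mark CACGTG, and the matches begin 116, 58 and 44 bases before the start of Ciart and 153 bases before that of Bhlhe41.
Ciart: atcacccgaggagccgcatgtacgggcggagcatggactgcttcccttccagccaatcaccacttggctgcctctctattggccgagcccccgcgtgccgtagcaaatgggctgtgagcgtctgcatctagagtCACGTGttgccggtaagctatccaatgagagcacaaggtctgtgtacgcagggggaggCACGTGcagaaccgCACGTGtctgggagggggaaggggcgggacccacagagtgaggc
Bhlhe41: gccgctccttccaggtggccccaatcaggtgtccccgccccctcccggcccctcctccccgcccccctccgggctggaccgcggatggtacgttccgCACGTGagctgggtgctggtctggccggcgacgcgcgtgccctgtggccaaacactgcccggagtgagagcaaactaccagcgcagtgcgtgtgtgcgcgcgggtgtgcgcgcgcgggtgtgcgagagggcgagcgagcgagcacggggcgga

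A match describes letters in a window and was not tested as a site. Nr1d1 and Dbp held no CACGTG in the same window. All 4 lower clock genes with a promoter were picked for being lower, so their shared direction says nothing about the motif.

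Interferon-stimulated genes formed the largest group of higher genes. Of 30 tested members, 10 were higher in HFD-25% (33.3%, against 3.29% of all genes) and 0 were lower. In 28 of the 30 the log2 fold change was above 0, against 49.5% of all genes, and the median was 0.42.

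Irf1, a transcription factor that carries the interferon gamma response, ran from 6.09 to 17.0 CPM in HFD-25% (median 10.2) and from 4.54 to 9.24 CPM in HFD-U (median 6.45). Its log2 fold change was 0.75 ± 0.24 (SE, unadjusted p = 0.00662 in edgeR), and 3 HFD-25% mice lay above every HFD-U mouse. Rsad2, the antiviral enzyme viperin, ran from 3.27 to 12.6 CPM (median 5.63) against 1.40 to 6.36 CPM (median 2.19), with a log2 fold change of 1.12 ± 0.38. Xaf1, a pro-apoptotic interferon target, had a log2 fold change of 0.79 ± 0.25.

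The MHC class I genes within and outside the list pointed the same way. B2m, the shared light chain of class I molecules and the list's most abundant member by CPM, held 79.8 to 155 CPM in HFD-25% (median 99.6) and 60.3 to 109 CPM in HFD-U (median 78.7), with a log2 fold change of 0.45 ± 0.18 (SE). The heavy chains H2-D1 and H2-K1, called members of the list that were named after their values were seen, had log2 fold changes of 0.37 ± 0.17 and 0.32 ± 0.15. Nlrc5, the transactivator of class I genes, was not in the list and ranked among the 12 smallest p of higher genes. It held 1.85 to 6.61 CPM with a median of 3.51 in HFD-25% and 0.501 to 2.05 CPM with a median of 0.993 in HFD-U. Only HFD-25% mouse 2 lay within the HFD-U range, and the log2 fold change was 1.79 ± 0.41 (SE, unadjusted p = 0.000522 in edgeR). H2-Q4, a nonclassical class I gene, held 7.74 to 30.7 CPM (median 17.3) against 6.01 to 11.2 CPM (median 8.84), with a log2 fold change of 1.06 ± 0.28. Reads of H2 genes can be shared between near-identical copies, so the split among them is uncertain. With 1 mouse left out, B2m was not called in 4 of 12 fits and H2-D1 and H2-K1 in 7 each, and their log2 fold changes were 0.32, 0.28 and 0.23 without HFD-25% mouse 3.

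Of 17 endothelial markers tested, 4 were called higher in HFD-25% (23.5%, against 3.29% of all genes), 0 were called lower and 13 were not called. All 17 had a log2 fold change above 0, against 49.5% of all genes, and the median was 0.51.

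Sox18, a transcription factor of vessel and lymphatic development, ran from 7.70 to 21.3 CPM in HFD-25% (median 16.6) and from 4.74 to 10.4 CPM in HFD-U (median 7.20). Only HFD-25% mouse 1 fell within the HFD-U range, and the log2 fold change was 1.04 ± 0.23 (SE, unadjusted p = 0.000391 in edgeR). Egfl7, a secreted factor of endothelial cells, ran from 27.1 to 86.8 CPM (median 52.1) against 21.2 to 39.5 CPM (median 26.7), with a log2 fold change of 0.93 ± 0.26. Cldn5, a claudin of endothelial tight junctions, and Flt1, VEGF receptor 1, had log2 fold changes of 0.54 ± 0.23 and 0.57 ± 0.26. Pecam1, Cdh5 and Kdr, defining markers named after their values were seen, gave 0.42 ± 0.26, 0.52 ± 0.30 and 0.43 ± 0.37 and were not called. With 1 mouse left out, Cldn5 was not called in 6 of 12 fits (log2 fold change 0.41 without HFD-25% mouse 3) and Flt1 in 8 (0.33 without HFD-25% mouse 6).

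Summed over the 18 markers of the list, which include the untested Apln, HFD-25% mice 1 to 6 held 374, 437, 868, 822, 454 and 1153 CPM. In the same order, HFD-U mice held 374, 330, 516, 706, 535 and 423 CPM. Mice 3, 4 and 6 of HFD-25% stood above every HFD-U mouse, with all 17 tested markers above their 12-mouse mean in each. HFD-25% mice 1, 2 and 5 lay inside the HFD-U range. The number of called markers was 10 without HFD-25% mouse 1 and 9 without HFD-U mouse 4. It was 2 without HFD-25% mouse 3 or 4 or HFD-U mouse 1, 2 or 6.

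HFD-25% mice 3, 4 and 6 were also the highest in the interferon list. Its 33 members, 30 of them tested, summed to 338, 323, 602, 435, 358 and 625 CPM in HFD-25% mice 1 to 6. In HFD-U the sums lay between 288 and 416 CPM. Of the 30 tested members, 27 lay above their 12-mouse mean in mouse 3, 22 in mouse 4 and 28 in mouse 6. In the other HFD-25% mice 4 to 10 did. The count of called interferon genes was 5 without HFD-25% mouse 3 or 6 or HFD-U mouse 1 or 2, and 6 without HFD-U mouse 5. With the mean log2 CPM of the endothelial markers as a covariate, 3 were higher and 1 was lower, and the list's median log2 fold change was 0.06. In that fit Nlrc5 had a log2 fold change of 1.37 and H2-Q4 one of 0.61, while Nr1d1 and Bhlhe40 had -1.30 and -0.97, and 5 of the 13 clock genes in the phase of Dbp were lower.

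**Figure D4:**
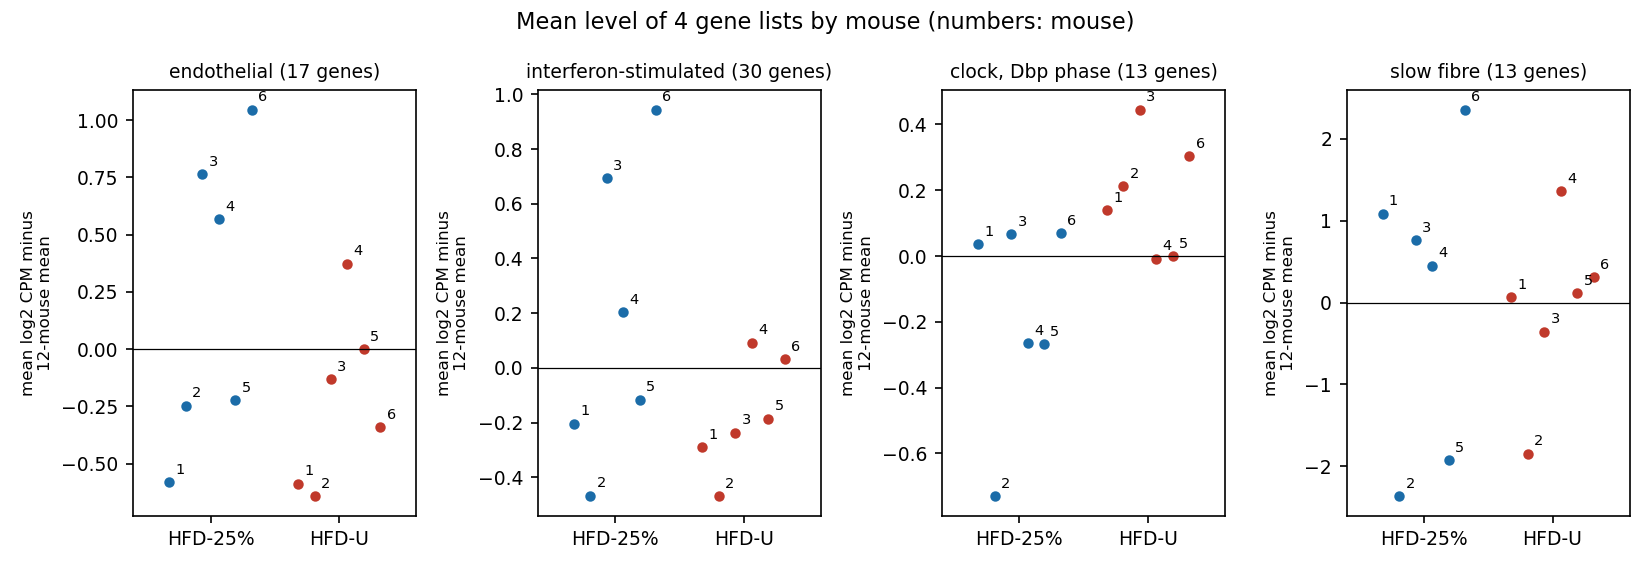
Mean log2 CPM of 4 gene lists in each mouse, minus the mean over the 12 mice, for HFD-25% and HFD-U (points, numbered by mouse). HFD-25% mice 3, 4 and 6 stand above every HFD-U mouse in the endothelial and interferon lists, and the slow fibre list spreads widely in both groups.

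Of the other cell types, 1 of 7 tested adipocyte markers was called (14.3%, against 5.1% of all genes). It was Lipe, with a log2 fold change of 0.42 ± 0.19 (SE), and the list had 6 above 0 and a median of 0.12. Of 5 tested nerve and Schwann cell markers, all were above 0 with a median log2 fold change of 0.38, and Prx, the periaxin of myelin, was called with 0.72 ± 0.26 (SE). Among 10 macrophage and leukocyte markers 0 were called (median 0.10), and likewise among 5 erythrocyte markers (median 0.27) and 8 fibroblast and tendon markers (median 0.01). The 11 skeletal muscle markers had a median of -0.04, with 10 below 0. Summed over all 12, HFD-25% mice 1 to 6 held 178736, 197621, 154633, 134942, 196598 and 106202 CPM, and HFD-U mice 142813 to 192509 CPM. Mice 3, 4 and 6 were thus the lowest of HFD-25%. They were also its highest in summed erythrocyte markers, at 327, 335 and 303 CPM, against 144, 176 and 214 CPM in mice 1, 2 and 5. HFD-U mice held 121 to 317 CPM. Whether these sums go with the endothelial and interferon levels was not tested.

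Lipid genes induced by fatty acids or glucocorticoids included some of the larger differences. Of 28 PPAR target genes, 3 were higher and 1 was lower (14.3%, against 5.1% of all genes). The list's median log2 fold change was 0.13, with 23 above 0. Angptl4, a secreted inhibitor of lipoprotein lipase, ran from 4.55 to 23.3 CPM in HFD-25% (median 10.7) and from 4.30 to 6.16 CPM in HFD-U (median 5.35). All HFD-25% mice but number 6 lay above every HFD-U mouse, and the log2 fold change was 1.15 ± 0.32 (SE, unadjusted p = 0.00240 in edgeR). Plin4, a coat protein of lipid droplets, ran from 549 to 802 CPM (median 754) against 456 to 635 CPM (median 569), with a log2 fold change of 0.35 ± 0.12. Vldlr, a receptor for triglyceride-rich lipoproteins, was lower with -0.35 ± 0.15. Pdk4, the kinase that shuts off pyruvate oxidation and the list's most abundant member by CPM, had a log2 fold change of 0.27 ± 0.21 and was not called. Vldlr was not called in 6 of the 12 fits without 1 mouse, and had a log2 fold change of -0.30 without HFD-U mouse 6.

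Among 40 genes of fatty acid uptake, lipolysis and oxidation, 3 were higher and 1 was lower (10.0%, against 5.1% of all genes). The list's median was 0.11, with 32 above 0. G0s2, the inhibitor of adipose triglyceride lipase, had a log2 fold change of 0.72 ± 0.30 (SE), Pnpla3, a lipid droplet acylhydrolase, 1.07 ± 0.45, and Lipe, hormone-sensitive lipase, 0.42 ± 0.19. Acsl4, an acyl-CoA synthetase for arachidonate, was lower with -0.34 ± 0.15. Among 35 lipogenic and sterol genes 3 were lower and 1 was higher, against 1.81% lower and 3.29% higher over all genes, and the alternative fits gave 1 to 4 lower and 0 to 4 higher. Srebf1, the transcription factor of fatty acid synthesis, ran from 41.6 to 56.2 CPM in HFD-25% (median 46.6) and from 52.8 to 71.6 CPM in HFD-U (median 58.6), with a log2 fold change of -0.30 ± 0.11. Abca1, the cholesterol exporter, was the higher member, with 0.40 ± 0.14. Without 1 mouse in turn, G0s2, Pnpla3, Lipe and Acsl4 were not called in 5, 4, 5 and 8 of the 12 fits, and the fold change of Pnpla3 was 0.58 without HFD-25% mouse 2.

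Of 21 glucocorticoid-induced genes, 3 were higher and 0 lower (14.3%, against 5.1% of all genes), and the list's median log2 fold change was 0.05. Beside Angptl4 these were Fkbp5, a co-chaperone of the glucocorticoid receptor, and Zbtb16, a transcription factor also known as PLZF. Fkbp5 ran from 66.6 to 254 CPM in HFD-25% (median 186) and from 55.5 to 148 CPM in HFD-U (median 116). The mice numbered 6 were lowest in both groups, and the log2 fold change was 0.64 ± 0.27 (SE, unadjusted p = 0.0299 in edgeR). Zbtb16 ran from 91.9 to 202 CPM (median 162) against 73.7 to 135 CPM (median 106), with a log2 fold change of 0.50 ± 0.20. Fkbp5 was not called in 4 and Zbtb16 in 3 of the 12 fits without 1 mouse, and they had log2 fold changes of 0.50 and 0.39 without HFD-25% mouse 2.

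The 12 genes that the study had selected for a response to distance were all above 0 here. They were chosen on libraries that include these 12, so their direction is not independent evidence. Called higher were Klf10, a TGF-beta-induced repressor (0.57 ± 0.19, SE), Xdh, xanthine dehydrogenase of purine breakdown (0.82 ± 0.29), and Fkbp5. Xdh ran from 61.8 to 198 CPM in HFD-25% (median 102) and from 39.4 to 100 CPM in HFD-U (median 63.8). With the endothelial mean as a covariate, the log2 fold changes were 0.67 for Klf10, 0.28 for Xdh and 0.81 for Fkbp5. The other 9 had log2 fold changes of 0.04 for Sesn1, 0.05 for Pik3r1, 0.11 for Fibin, 0.22 for Phyhd1, 0.33 for Aldh1l1, 0.38 for Car4, 0.40 for Lars2, 0.41 for Aldh9a1 and 0.59 for Foxo1, and none of these was called. Over the alternative fits the count called ran from 2 to 6, and without HFD-U mouse 4 it was 5.

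Stress kinase and immediate early genes went both ways. Of 32 genes of the MAP kinase cascades and their DUSP phosphatases, 3 were higher and 2 were lower (15.6%, against 5.1% of all genes). Dusp10, the phosphatase that turns off p38 and JNK, ran from 15.5 to 37.2 CPM in HFD-25% (median 21.1) and from 31.3 to 75.3 CPM in HFD-U (median 43.7), where mouse 6 stood apart. Its log2 fold change was -0.87 ± 0.24 (SE, unadjusted p = 0.00257 in edgeR), opposite in sign to that of Map3k15. Gadd45g, an activator of stress kinase signalling, was lower with -0.96 ± 0.33, and its relative Gadd45a was higher with 0.39 ± 0.17, though not called in 5 of the 12 fits without 1 mouse (0.26 without HFD-25% mouse 1). Of 26 immediate early genes, Zfp36l1 and Klf10 were higher and Zfp36, the relative of Zfp36l1 known as tristetraprolin, was lower with -0.59 ± 0.21. Nr4a1, the list's most abundant member by CPM, had -0.12 ± 0.24.

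Among 25 TGF-beta and mechanosensitive genes 3 were higher and 0 lower (12.0%, against 5.1% of all genes). They were Tgfb1 (0.67 ± 0.23, SE), the ligand, Bmp6 (0.73 ± 0.31), a bone morphogenetic protein, and Smad7 (0.42 ± 0.20), the inhibitory Smad. Eln, elastin of arterial walls, was the called one of 35 matrix proteins, at 13.8 to 28.7 CPM (median 22.3) against 10.4 to 21.4 CPM (median 12.2). Col4a5, a basement membrane collagen chain, was the called one of 20 collagens, with 0.55 ± 0.25. Myog, myogenin, was the called one of 22 myogenic and junction genes, at 1.63 to 3.22 CPM (median 2.81) against 1.42 to 1.94 CPM (median 1.58), with a log2 fold change of 0.68 ± 0.22. Bmp6, Smad7 and Col4a5 were each not called in 7 of the 12 fits without 1 mouse. Their log2 fold changes were 0.50 for Bmp6 without HFD-25% mouse 6, and 0.33 for Smad7 and 0.38 for Col4a5 without HFD-25% mouse 2. With the endothelial mean as a covariate, the values were 0.39 for Tgfb1, 0.18 for Bmp6 and 0.56 for Smad7.

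Fuel metabolism and contraction showed few or no called genes. Of 39 genes of glycolysis and glycogen, the 1 called was Pfkfb3, which makes the activator of phosphofructokinase, with -0.91 ± 0.37 (SE). HFD-U mice spread from 62.8 to 343 CPM in Pfkfb3 and HFD-25% mice from 42.9 to 123 CPM. Its log2 fold change was -0.54 without HFD-U mouse 3, 1 of 4 mice without which it was not called. No member was called among 36 nuclear complex I genes, 42 genes of complexes II to V, 21 TCA cycle genes, 33 genes of insulin signalling and glucose uptake, 13 of sestrins and AMPK, 20 PGC-1, ERR and PPAR regulators, 29 autophagy genes, 35 proteasome genes, 33 genes of calcium handling and 31 heat shock genes. The medians of these lists lay between -0.09 and 0.06. Slc2a4, the insulin-sensitive glucose transporter GLUT4, had a log2 fold change of -0.05 ± 0.12.

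Slow fibre genes varied widely between mice of the same group. None of 13 was called, although 11 were above 0 and the median log2 fold change was 0.71. Summed over the list, HFD-25% mice ran from 202 to 3982 CPM and HFD-U mice from 199 to 2278 CPM. Myh7, slow myosin heavy chain, which was named after its values were seen, ran from 0.861 to 517 CPM in HFD-25% and from 15.0 to 189 CPM in HFD-U, with a log2 fold change of 1.03 ± 0.98 (SE). Without HFD-25% mouse 6 the list's median was 0.09, and without HFD-U mouse 4 it was 1.23. Fast 2B and fast 2A and 2X fibre lists had 0 called members, and Myh4, the 2B myosin heavy chain, had a log2 fold change of -0.03 ± 0.26.

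**Figure D5:**
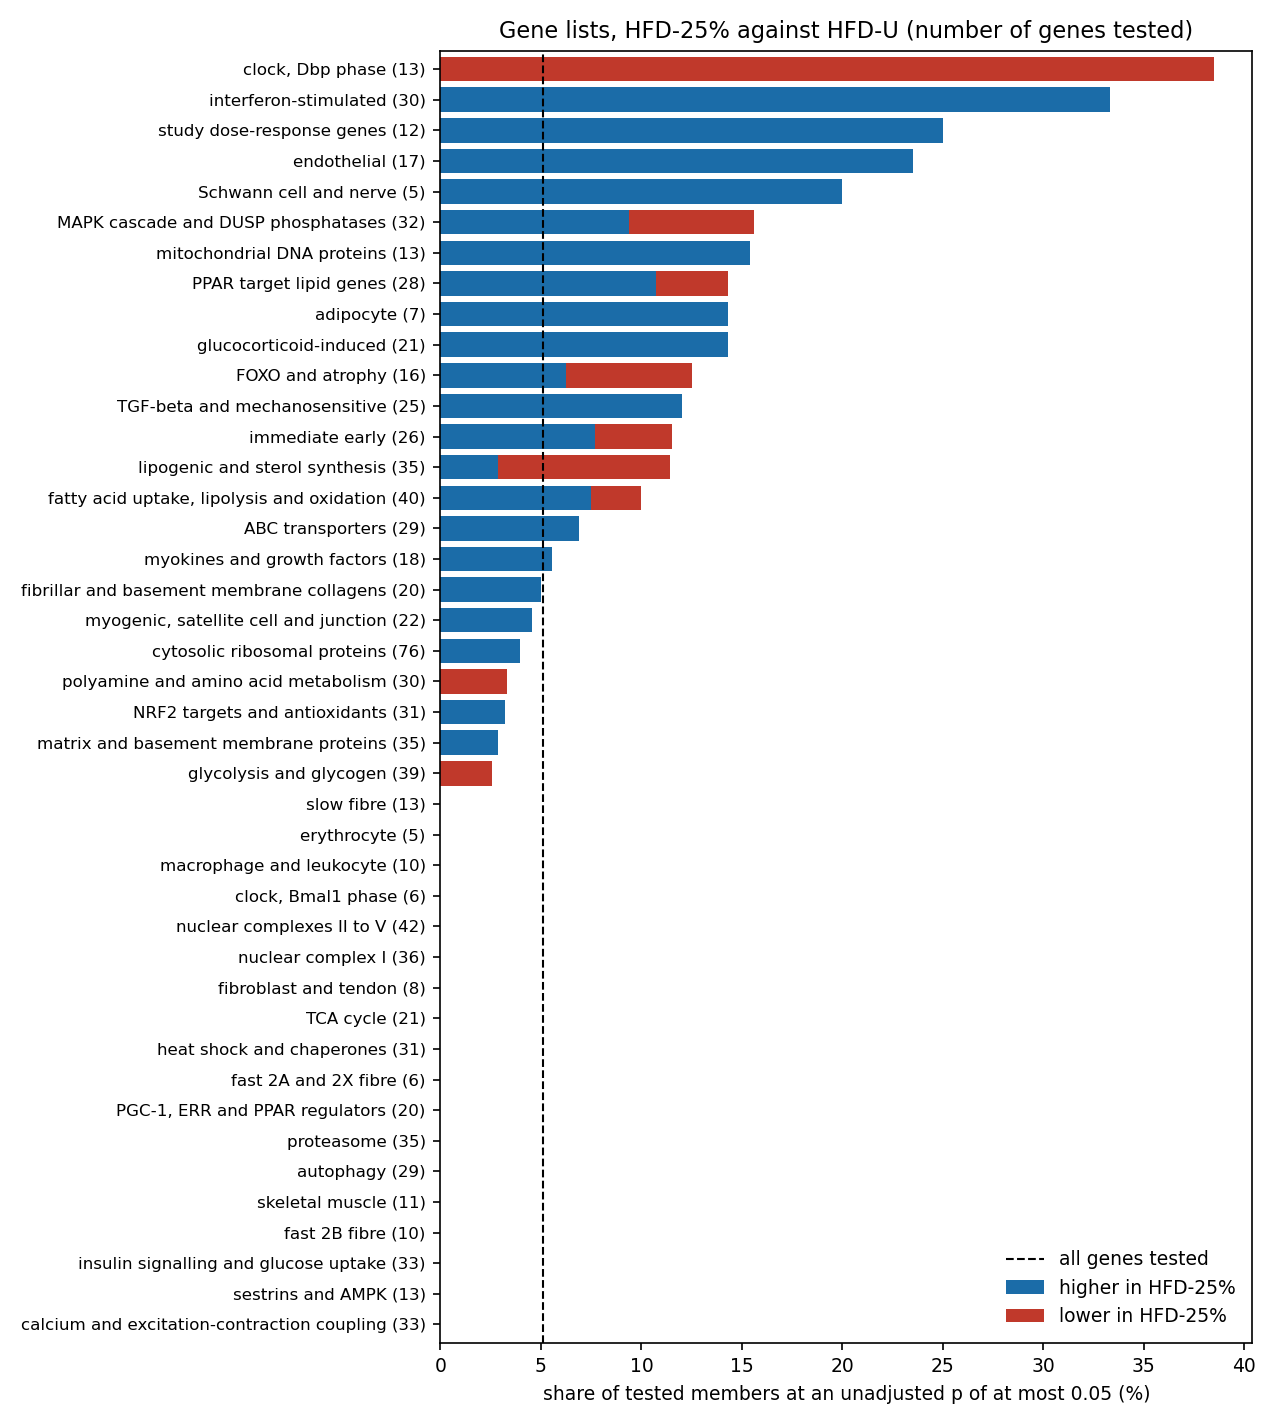
Share of tested members of 41 lists and of the 12 study genes called higher (blue) or lower (red) in HFD-25%, in percent, with the number of genes tested in brackets. The dashed line marks the 5.1% of all genes, and the clock list in the phase of Dbp stands highest at 38.5%.

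A few called features of the translation and respiration machinery rested on single mice or on reads that are hard to place. Of 76 cytosolic ribosomal protein genes 3 were higher (3.95%, against 3.29% of all genes). They were Rpl21 (0.71 ± 0.20, SE), Rps27a (0.61 ± 0.23) and Rps28 (0.27 ± 0.12), and such genes have many near-identical pseudogenes. Rps27a was not called without HFD-25% mouse 4 (0.38), and Rps28 was not called in 7 of the 12 fits without 1 mouse. Of 13 protein genes of mitochondrial DNA 2 were higher. ND3 was at 212 CPM in HFD-25% mouse 4 and at no more than 20.1 CPM in any other of the 12 mice. Without that mouse the log2 fold change of ND3 was 0.11, against 1.97 ± 0.74 (SE) with it. ATP8 was at 14.0 CPM in HFD-25% mouse 1 and at 2.32 to 4.91 CPM in the other HFD-25% mice, and it overlaps its neighbour ATP6. The log2 fold change of ATP8 was 1.59 ± 0.53 (SE), and without that mouse it was 1.04 and still called. The abundant COX1 had a log2 fold change of -0.03 ± 0.22.

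Mice that ran intermediate distances gave a comparison that shares no animal with the one above. In HFD-50% against HFD-75%, 639 of 11896 genes were called (5.37%) and 0 passed the adjusted threshold of edgeR's quasi-likelihood test. Of the genes called between HFD-25% and HFD-U and tested in both comparisons, 487 of 598 (81.4%) had the same sign, with the shorter distance over the longer each time, against 7712 of 11754 (65.6%) over all genes. Among the 24 genes without overlap between HFD-25% and HFD-U the share was 15 of 24 (62.5%).

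The gene lists gave the following values, and differences between lists were not tested. All 17 endothelial markers were above 0 in HFD-50% over HFD-75%, with 2 called and a median log2 fold change of 0.25. Of the 30 interferon-stimulated genes 25 were above 0, with 2 called and a median of 0.30. The clock genes in the phase of Dbp had 0 called, 6 of 13 above 0 and a median of -0.05, and Nr1d1 had a log2 fold change of -0.05 ± 0.24 (SE). Of the slow fibre genes 6 of 13 were called higher in HFD-50%, with a median of 1.25.

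Across the running groups, summed endothelial CPM, scaled over 30 mice, averaged 675 ± 308 (SD) for HFD-25%, 630 ± 163 for HFD-50%, 536 ± 110 for HFD-75%, 474 ± 132 for HFD-U and 464 ± 93.8 for sedentary HFD-C. The means fell with distance, but each neighbouring pair differed by less than 1 SD. Sox18 averaged 15 ± 4.8 CPM at 25%, 15.6 ± 4.13 at 50% and 11.2 ± 2.87 at 75% of the distance, against 7.3 ± 1.88 CPM in HFD-U and 7.83 ± 3.39 CPM in HFD-C. Sox13 averaged 18.5 ± 1.46 CPM at 25%, 16.6 ± 1.06 at 50% and 16 ± 2.22 at 75%, against 13.2 ± 1.8 CPM in HFD-U and 13.1 ± 2.63 CPM in HFD-C. For both genes the mean of HFD-C differed from that of HFD-U by less than 1 SD, in libraries with the rRNA-linked shares given above. Angptl4 was highest in HFD-50%, at 24.3 ± 12.5 CPM, against 11.5 ± 6.74 in HFD-25%, 14.9 ± 6.23 in HFD-75%, 5.19 ± 0.757 in HFD-U and 7.11 ± 4.46 in HFD-C.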

How the data were processed

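Whole gastrocnemius RNA, selected by poly(A), was sequenced as paired reads. The deposited values are raw whole-number counts per gene and library. The authors aligned reads with HISAT2 2.0.5 and counted them with featureCounts 1.5.0-p3, and the submitters' processing notes also list StringTie 1.3.3b, edgeR 3.22.5 and DESeq2 1.20.0. Those notes name mm10, whereas the chromosome sequences in the deposited table are those of GRCm39, which is used for gene positions. The strand setting is not given in the sources used here, so overlapping genes may share reads. Gene lengths and other annotation came with the counts.

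In R 4.3.3, the fit was limited to genes averaging 25 or more reads across the 12 libraries and scaled with TMM, and edgeR 4.0.16's quasi-likelihood test gave two-sided p-values, adjusted by Benjamini-Hochberg over all 11949 genes. The threshold of p 0.05 and the minimum count follow the study's methods, in which DESeq2 was used, and DESeq2 1.42.0 served as an alternative. CPM were scaled with the TMM factors. The tests were tried on simulated data. Replicate libraries differed by 16.3 to 184 times the variance of sampling alone, pooled over genes, a figure that abundant genes dominate.

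Genes were named by a rule: the 12 smallest p in each direction, the 12 genes selected by the study, up to 3 called members and the most abundant member of each list, and all called clock, immediate early and glucocorticoid genes. Predicted and unnamed genes were left out, as were some uncalled or less informative ones, and some items are not reported here. The comparison, the 34 biological and 7 marker lists and the rule were chosen with earlier results of these data known. Alternatives were DESeq2, other count minimums, RLE factors, joint fits over 24 or 30 mice, covariates, a replicate block, and leaving out each mouse. The endothelial covariate was added after seeing the data.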

Additional observations from a re-analysis of the deposited data

Results flagged for a closer look

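In 13 of 190 groups of 6 mice examined, 1 mouse stood apart from the other 5 by a gap above Dixon's 95% limit of 0.625 of the group's range. Chance flags about 1 in 20 groups. In HFD-25% the extreme values were those of ND3 at 212 CPM in mouse 4 (the others 9.04 to 20.0), ATP8 at 14.0 in mouse 1 (the others 2.32 to 4.91), Snrpg at 13.3 in mouse 4 (the others 9.80 to 11) and Sh3bp5 at 27.7 in mouse 3 (the others 19.9 to 22.7).

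In HFD-U, mouse 6 stood apart in Pik3cd at 29.8 CPM (the others 16.1 to 19.6), in Dusp10 at 75.3 CPM (31.3 to 47.4) and in the summed adipocyte markers at 3256 CPM (1598 to 2100). Most of that sum was 1 gene, Car3, at 2976 CPM in mouse 6 and 1352.5 to 1820 CPM in the other HFD-U mice. Mouse 4 stood apart in Xaf1 at 4.58 CPM (2.57 to 3.31), Aldh9a1 at 39.6 CPM (19.2 to 25.4) and Phyhd1 at 46.2 CPM (26.8 to 33.1). Mouse 3 stood apart in Tef at 436 CPM (348 to 378) and Fibin at 32.0 CPM (10.6 to 18.6), and mouse 1 in Sox13 at 16.8 CPM (11.9 to 13.3). In Sox13, Snrpg, Xaf1, ATP8, Pik3cd, Sh3bp5 and Dusp10 the call held without any single mouse. ND3 was not called without HFD-25% mouse 4.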

How the results depend on the processing

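No alternative brought a gene past the adjusted threshold. The 609 called genes (393 higher, 216 lower) became 1796 (1126 higher, 670 lower) without a minimum count, where 26255 genes were tested, and 253 were higher with a minimum of 100. With a covariate for the rRNA-linked share 352 were called (225 higher, 127 lower), and with the endothelial mean 248 were higher and 250 lower, so the share of called genes that were higher went from 64.5 to 49.8%. Leaving out 1 mouse gave 405 to 1219 called genes, with 254 to 742 higher and 146 to 477 lower. The cause of these shifts was not tested. Kdr, one of the markers in that covariate, had a log2 fold change of -0.34 with it and was called lower, against 0.43 and no call without it.

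Mice carry the numbers 1 to 6 in both groups, and no source says that a number marks a shared litter or day. Deviations of same-numbered mice correlated at 0.00 to 0.42, above 0.1 in 5 of 6 pairs, and 4 of 6 mice correlated best with their own number. Those of differently numbered mice in the 2 groups correlated at -0.54 to 0.48. Since 1 same-numbered pair did not exceed 0.1, the mice were not treated as paired. With the replicate block 1036 genes were called (605 higher, 431 lower) and 0 passed adjustment. Foxo1 (0.66), Aldh1l1 (0.35), Pecam1 (0.38) and Cdh5 (0.40) became called with the block, and Pnpla3 (0.86), Gadd45a (0.36), Col4a5 (0.49) and ND3 (0.81) were no longer called (log2 fold changes in brackets).

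The share of called genes with the same sign in HFD-50% over HFD-75% was 65.9% without a minimum count, where it was 59.1% over all genes. For genes without overlap it was 62.5%, and in the main fit 81.4%, each beside 65.6% over all genes. Among the 88 named genes over 24 alternatives, 189 values lost the call, 27 gained it in the same direction, and 1 (that of Kdr) was called in the opposite direction. Of the 63 called ones, 23 lost it in 1 or more fits without 1 mouse. Genes at a few CPM, such as Nlrc5 and ATP8, rest on few reads, and for them counting error and spread between mice were not separated.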
